A study of Mus musculus with 3 samples.

Results

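Transcription factors that set the fate of helper T cells were read out in mouse regulatory T cells (Treg cells, which hold immune responses in check and rely on the factor Foxp3). The 9 genes were taken by name: Tbx21, Gata3, Rora, Bcl6, Eomes, Runx3, Zbtb7b, Ahr and Maf. All 9 were found among the 22457 genes of the count tables. The rule names the genes and uses no threshold on a measured value. The material was primary Treg cells labelled as male, adult and 4 months of age; no strain, genotype, sorting gate, treatment or number of animals is named. RNA carrying poly(A) tails was sequenced in 3 libraries, which the labels call technical replicates 1, 2 and 3 of 1 biological replicate. They form 1 group, so no conditions are compared. Every SD below measures the spread between these libraries, which may be technical. Every p-value concerns differences between these libraries, and neither measures the spread between animals.

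Each helper T cell fate is tied to a factor that switches on its program and holds down the others. Tbx21 (T-bet) drives the Th1 program of interferon gamma producers, Gata3 the Th2 program, Rora contributes to the Th17 program, and Bcl6 drives follicular helper T cells (Tfh cells). Zbtb7b (ThPOK) and Runx3 oppose each other when thymocytes choose between the CD4 and the CD8 lineage, and Eomes is a relative of T-bet known from CD8 T cells and natural killer (NK) cells. Ahr is a receptor that senses small aromatic ligands, and Maf (c-Maf) promotes Il10 and Il21. Treg cells are known to take up several of these factors beside Foxp3.

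Library totals were 3316275, 3079004 and 2782259 counts in libraries 1, 2 and 3. Levels are counts divided by the library total and multiplied by 1000000 (CPM), and detection means that no library lay below 1 CPM. At these depths 3 counts equal 0.905, 0.974 and 1.08 CPM, taken as the 1-sided bound for a gene with no count. Intervals are exact 95% Poisson intervals unless named otherwise, and these, like the limits, speak only to counting error, because copies made from the same molecule are not independent. Foxp3 had 448, 447 and 407 counts (142 ± 6.17 CPM, SD, n = 3 libraries), and all 12 Treg identity genes and all 10 pan CD4 T cell genes checked were detected. B cell markers with fewer than 0.5 counts per coding base (11 of 13) summed to 120.3, 336 and 308 CPM, so libraries 2 and 3 held more of them than library 1. Above that density lay the highest of the list, Ighm (894, 960.1 and 1044 CPM) and Cd74 (454, 514 and 553 CPM). All 13 summed to 1469, 1811 and 1905 CPM.

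Of the 9 factors, 8 were detected, against 47.3% of all genes in the tables. The median of their mean levels was 29.3 CPM, beside 1.08 CPM over all genes. In CPM, not scaled for length, Gata3 had 441 ± 54.3 and Rora 241 ± 5.04 (SD, n = 3 libraries, as in all that follow). Then came Zbtb7b at 55.0 ± 8.10 CPM, Maf at 46.2 ± 2.01, Ahr at 29.3 ± 5.92, Tbx21 at 26.2 ± 4.91, Bcl6 between 21.6 and 27.6 over the libraries, and Runx3 at 22.0 ± 7.17. Eomes missed detection at 1.49 ± 0.673 CPM. Gata3 lay above 98.6% of all genes in mean CPM, Rora above 95.4% and Eomes above 51.5%.

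**Figure D1:**
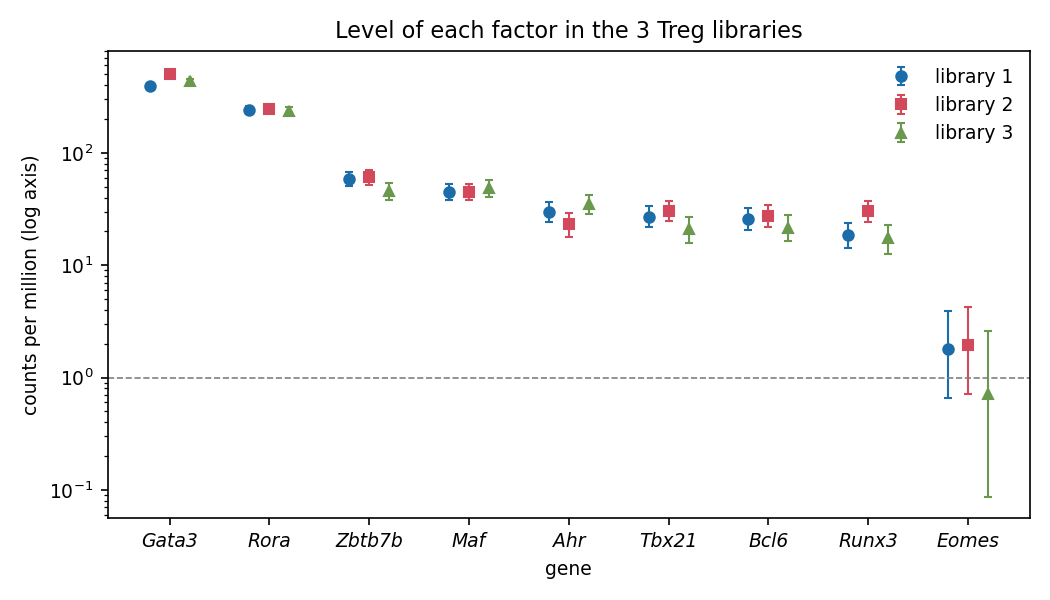
Level of each factor (CPM, log axis) in libraries 1, 2 and 3, with exact 95% Poisson intervals of the counts. The dashed line marks 1 CPM. Gata3 and Rora stand apart at the top, 6 factors lie between 17.3 and 60.4 CPM, and Eomes lies near 1 CPM.

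Genes were compared with each other per 1000 coding bases. On that scale Gata3 had 332 ± 40.9 CPM per 1000 coding bases, Rora 144 ± 3.02, Maf 40.5 ± 1.77, Zbtb7b 33.7 ± 4.96, Runx3 17.1 ± 5.58, Tbx21 16.5 ± 3.09, Ahr 12.1 ± 2.45, Bcl6 11.8 ± 1.47 and Eomes 0.703 ± 0.317. The ranges over the libraries did not overlap between Gata3 and Rora, Rora and Maf, Maf and Zbtb7b, Zbtb7b and Runx3, or Bcl6 and Eomes. Runx3 and Tbx21, Tbx21 and Ahr, and Ahr and Bcl6 did overlap as neighbours, each with the upper gene higher in 2 of 3 libraries, so these neighbours did not differ beyond their spread. With the length of all annotated exons in place of the coding length, Gata3, Rora, Zbtb7b, Bcl6 and Eomes kept their places, while Tbx21 moved from place 6 to 3, Maf from 3 to 5 and Runx3 from 5 to 7, and Ahr from 7 to 6. Which parts of the transcripts were counted is not given in the sources used here.

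**Figure D2:**
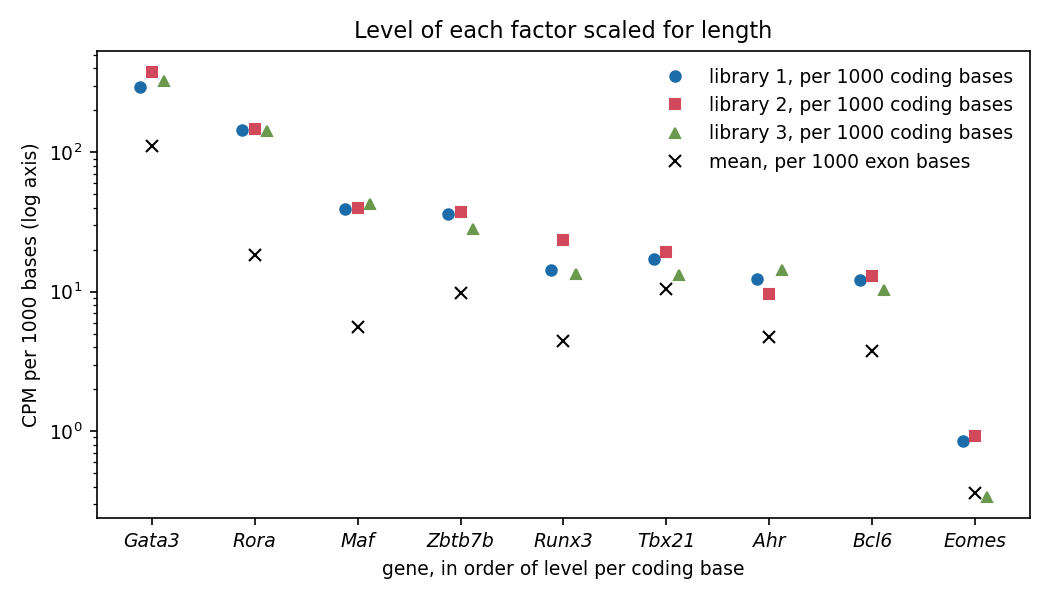
CPM per 1000 coding bases (log axis) of each factor in libraries 1, 2 and 3, with the mean per 1000 exon bases as crosses. Genes are ordered by the mean per coding base, from Gata3 at 332 to Eomes at 0.703, and the crosses place Tbx21 (10.5 per 1000 exon bases) above Maf (5.61).

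Of the T-box factors, Tbx21 was detected and Eomes was not. Tbx21 (ENSMUSG00000001444) lies on the minus strand of chromosome 11, from 97098071 to 97115331 (GRCm38), with 6 coding exons. It had 90, 94 and 58 counts in libraries 1, 2 and 3, or 27.1, 30.5 and 20.8 CPM, lowest in library 3, and the Poisson intervals of all libraries overlapped (21.8 to 33.4, 24.7 to 37.4 and 15.8 to 26.9 CPM). Eomes (ENSMUSG00000032446; chromosome 9, 118478212 to 118486132, plus strand, 6 coding exons) had 6, 6 and 2 counts, or 1.81, 1.95 and 0.719 CPM. Over the summed counts of 242 and 14, Tbx21 had 23.1 times the level of Eomes per coding base, with an exact Clopper-Pearson interval of 13.5 to 42.8. The ratio was 20.0 in library 1 (8.85 to 56.0), 20.9 in library 2 (9.25 to 58.4) and 38.7 in library 3 (10.2 to 327), where it rests on 2 Eomes counts. T-bet transcripts were counted far more often than those of Eomes in every library.

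The coding sequences of these relatives are alike enough to ask whether reads could be confused. The most similar stretch of 90 bases without gaps is shown because it bears on that question, from coding position 882 to 971 of Tbx21 and 1281 to 1370 of Eomes, counted from the A of the start codon. Capitals mark bases that are the same in both, and sequences are from the GENCODE M21 transcripts (GRCm38).

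Tbx21: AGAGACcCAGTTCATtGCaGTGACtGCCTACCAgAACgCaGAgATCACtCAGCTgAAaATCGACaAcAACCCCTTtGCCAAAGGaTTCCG
Eomes: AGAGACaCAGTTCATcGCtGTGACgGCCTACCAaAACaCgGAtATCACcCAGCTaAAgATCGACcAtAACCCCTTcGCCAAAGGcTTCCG

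Of these 90 bases 75 matched (83.3%), and the longest identical run anywhere in the 2 coding sequences was 16 bases. No 31-base stretch of either coding sequence occurred in transcripts of any other gene on either strand. The other T-box genes checked were low: Tbx6 had 25, 11 and 12 counts (5.14 ± 2.11 CPM), Tbr1 and Tbx2 had 1 count each in library 1, and Tbx1 and Tbx3 had none.

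Nearly the whole Th1 program was counted. Of 14 genes, 13 were detected, and the median was 161 CPM beside 1.08 CPM over all genes. High in CPM were the interferon gamma receptor chain Ifngr1 at 705 ± 31.5 and the receptor chain Il27ra at 575 ± 13.9. Cxcr3, a chemokine receptor that T-bet is known to induce, had 511, 514 and 459 CPM. Ifng, the defining cytokine, had 59, 47 and 65 counts (18.8 ± 4.14 CPM), with 44.8% of its stretches shared. At the low end, Ifngr2 had 17.3 ± 3.56 CPM, and Hlx, a homeobox partner of T-bet, had 0, 3 and 0 counts.

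Gata3 (ENSMUSG00000015619) lies on chromosome 2 from 9857078 to 9890034 on the minus strand, with 6 exons, 5 of them coding. It had 1299, 1537 and 1201 counts, or 392, 499 and 432 CPM, and the Poisson intervals (371 to 414, 475 to 525 and 408 to 457 CPM) left library 2 above the others without overlap. Per coding base, Gata3 had 20.0 times the level of Tbx21 over the summed counts (exact Clopper-Pearson interval 17.5 to 22.8), and 17.3, 19.6 and 24.8 times in libraries 1, 2 and 3. Per exon base the ratio was 10.4. Against Foxp3 it was 3.00 per coding base (2.82 to 3.20), and 2.81, 3.33 and 2.86 in the 3 libraries. At 1.01 counts per coding base, Gata3 was the densest of the 9 factors, followed by Rora at 0.441, while the other 7 lay at or below 0.124. Among genes with at least 500 coding bases, the highest, Rac2, reached 2.27, 2.23 and 2.23 counts per coding base in libraries 1, 2 and 3, so the tables hold a narrow range above Gata3. Whether counts of such dense genes are compressed, which would understate the level of Gata3 and its ratios, was not tested.

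Gata3 was also nearly alone in its family. Gata1, known from red cell precursors, had 10, 6 and 10 counts (2.85 ± 0.835 CPM), and Gata2, Gata4, Gata5 and Gata6 had none in any library. Per coding base Gata3 had 166 times the level of Gata1 (exact Clopper-Pearson interval 113 to 254), and 139, 274 and 128 times by library. Of the coding 31-base stretches of Gata3, 65 occurred in other transcripts, all of them in the antisense gene Gm13256, which is not among the counted genes. The overlapping genes 4930412O13Rik and 9230102O04Rik are on the antisense and the same strand. 4930412O13Rik had 9, 14 and 6 counts and 9230102O04Rik had 4 in each library, few beside those of Gata3.

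Th2 program genes ranged from no count to the level of Stat6. Of 14 genes, 9 were detected (median 15.7 CPM). Stat6, which relays the signal of the Th2 cytokine Il4, had 519, 638 and 446 CPM, the costimulatory receptor Icos 368 ± 22.0 and the chemokine receptor Ccr8 317 ± 22.2. The cytokine genes Il4, Il5 and Il13 were near 0: Il4 had 2, 0 and 4 counts, Il5 0, 1 and 0, and Il13 1, 0 and 0. The prostaglandin receptor gene Ptgdr2 had 1, 0 and 1 counts, while Areg, which encodes a secreted growth factor, had 48, 57 and 61 (18.3 ± 3.73 CPM). Bhlhe41, a factor known from Th2 cells, had no count in any library, with 50.6% of its coding stretches shared with other transcripts. A high level of Gata3 stood beside few counts on Il4, Il5 and Il13.

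Rora (ENSMUSG00000032238), which encodes the nuclear receptor ROR-alpha, spans 68653786 to 69388246 on the plus strand of chromosome 9, with 11 coding exons. Its 805, 753 and 654 counts gave 243, 245 and 235 CPM, with overlapping intervals of 226 to 260.1, 227 to 263 and 217 to 254 CPM. The highest library exceeded the lowest by a factor of 1.04, the smallest of the 9 genes. Its relative Rorb had 3, 0 and 0 counts. The share of its coding 31-base stretches found in other transcripts was 3.23%, all in the antisense gene Gm15511.

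Of 12 genes of the Th17 program, 8 were detected (median 17.5 CPM). Stat3, which relays Th17-inducing cytokines, led at 289.8 ± 34.2 CPM, followed by Batf, an AP-1 family factor, at 177 ± 17.4 and the chemokine receptor Ccr6 at 139 ± 26.0. The effector genes Il17a and Ccl20 were at 0 counts throughout, for which the 1-sided bound is 0.905, 0.974 and 1.08 CPM, and the upper end of the 2-sided Poisson interval 1.11, 1.20 and 1.33 CPM. Rora was high in libraries with no count on Il17a, as Gata3 was with few on Il4, Il5 and Il13.

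Bcl6 (ENSMUSG00000022508), a zinc finger repressor, lies on the minus strand of chromosome 16 from 23965052 to 23988852, with 10 exons, 8 of them coding. It had 86, 85 and 60 counts, or 25.9, 27.6 and 21.6 CPM, with overlapping intervals (20.7 to 32.0, 22.1 to 34.1 and 16.5 to 27.8 CPM). Its closest relative in the list, Bcl6b, had 3, 0 and 0 counts. No coding stretch of 31 bases was shared with another gene.

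Bcl6 is known to be regulated by STAT factors, and Stat3 and Stat6 were among the highest program genes, so the region before its start was searched for the STAT motif TTCNNNGAA. The motif reads the same on both strands. RefSeq promoter windows (GRCm38.p6; the 250 bases before each start) matched 7 of the 9 factors, with 10 windows; Ahr and Maf had no entry. The window before an internal start of Bcl6, chr16:23981284-23981533 on the minus strand, is shown because it held 3 matches, in capitals.

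Bcl6: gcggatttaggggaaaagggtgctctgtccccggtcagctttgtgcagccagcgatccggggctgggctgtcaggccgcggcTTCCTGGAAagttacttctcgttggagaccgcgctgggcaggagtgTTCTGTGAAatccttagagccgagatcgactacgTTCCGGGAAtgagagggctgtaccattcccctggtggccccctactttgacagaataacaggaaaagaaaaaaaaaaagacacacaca

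At least 1 match was present in 7.02% of the 32851 windows of this length and 3 or more in 0.0274%. The other Bcl6 window, chr16:23988853-23989102, held 1 match, and no window of the other 6 factors held any. A match is a description of the letters, and binding was not measured. For the other motifs searched on both strands, the motif of GATA factors, written AGATAA, occurs in 9.99% of all windows. The motif of T-box factors, TCACAC, occurs in 12.3%, and the promoter element TATAAA in 12.4%. None of these stood in the 10 windows of the factors.

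Of 12 Tfh program genes, 10 were detected (median 87.1 CPM). Icos led, followed by the inhibitory receptor Pdcd1 (PD-1) at 312 ± 24.1 CPM and Prdm1 (Blimp-1), the repressor that opposes Bcl6, at 225, 204 and 140.2 CPM. Cxcr5, the chemokine receptor that leads Tfh cells to B cell follicles, had 34.1, 33.5 and 34.1 CPM. The Tfh cytokine Il21 had 3, 0 and 0 counts and the factor Ascl2 0, 0 and 2. Germinal centre B cell markers, which include Bcl6-expressing cells, had 4 of 6 detected and summed to 179, 216 and 196 CPM. Fas, which activated T cells also express, had 176 ± 16.3 CPM of that sum, S1pr2 had 14.6 ± 5.23, and Rgs13 had no count.

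Zbtb7b (ENSMUSG00000028042) lies on chromosome 3 from 89377644 to 89394776 on the minus strand, with 3 exons, 2 of them coding. It had 195, 186 and 127 counts, or 58.8, 60.4 and 45.6 CPM, lowest in library 3, whose interval of 38.1 to 54.3 CPM overlapped the others (50.8 to 67.7 and 52.0 to 69.7). Of its coding 31-base stretches, 9.68% occurred in other transcripts, all of them in the pseudogene Gm18856, which had 0, 0 and 1 counts, and 40 also in B3galnt2 (66, 68 and 70 counts). Its relative Zbtb7a had 56, 87 and 84 counts (25.1 ± 7.19 CPM), lowest in library 1. Per coding base Zbtb7b had 2.34 times the level of Zbtb7a (exact Clopper-Pearson interval 2.00 to 2.75). By library it was 3.64 (lower bound 2.69), 2.24 (1.73 to 2.92) and 1.58 (1.19 to 2.11), so libraries 1 and 3 differed beyond their counting intervals while the direction was shared. In this family of zinc finger genes, Zbtb32 had 57.5 ± 6.37 CPM per 1000 coding bases and Zbtb17 32.1 ± 2.17, beside 33.7 ± 4.96 for Zbtb7b, and Zbtb16, known from innate-like T cells, had no count.

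Runx3 (ENSMUSG00000070691) lies on chromosome 4 from 135120652 to 135177990 on the plus strand, with 6 coding exons. It had 61, 93 and 48 counts, or 18.4, 30.2 and 17.3 CPM. Library 2 was highest, and its interval of 24.4 to 37.0 CPM lay above that of library 1 (14.1 to 23.6) and of library 3 (12.7 to 22.9). Per coding base, Zbtb7b had 1.98 times the level of Runx3 over the summed counts of 508 and 202 (exact Clopper-Pearson interval 1.68 to 2.34), and 2.52, 1.57 and 2.08 times in libraries 1, 2 and 3. The factor of the CD4 lineage was above that of the CD8 lineage in every library, though Runx3 was present.

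All 3 RUNX genes were detected, at 21.1 to 25.4 CPM per 1000 coding bases for Runx1, 13.4 to 23.5 for Runx3 and 8.51 to 11.2 for Runx2. Runx1 had 100, 112 and 85 counts (32.4 ± 3.48 CPM) and Runx2 69, 59 and 44 (18.6 ± 2.54). Per coding base, Runx1 had 1.32 times the level of Runx3 (exact Clopper-Pearson interval 1.10 to 1.59), but per exon base 0.612 times, so their order depends on the length used. The stretch of 90 coding bases most alike in Runx3 and Runx1 is shown because it holds the only stretches the 2 genes share. It covers coding positions 244 to 333 of Runx3 and 229 to 318 of Runx1, with matching bases in capitals.

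Runx3: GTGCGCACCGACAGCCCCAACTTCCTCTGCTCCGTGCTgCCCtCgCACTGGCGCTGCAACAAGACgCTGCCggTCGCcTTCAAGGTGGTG
Runx1: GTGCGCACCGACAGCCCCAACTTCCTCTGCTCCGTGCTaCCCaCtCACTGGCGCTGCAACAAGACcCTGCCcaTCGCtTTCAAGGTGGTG

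Here 83 of 90 bases matched (92.2%), with an identical run of 38 bases. Runx3 shared 8 coding stretches of 31 bases with Runx1, which is 0.638% of its own. Runx1 shared 5.88% of its stretches with transcripts of other genes and Runx2 1.75%.

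Runx3 is known to be transcribed from an upstream and a downstream promoter. The upstream window, chr4:135120395-135120644 on the plus strand (RefSeq, GRCm38.p6), is shown because it holds 2 copies of the RUNX motif TGTGGT, read on the other strand as ACCACA, in capitals.

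Runx3: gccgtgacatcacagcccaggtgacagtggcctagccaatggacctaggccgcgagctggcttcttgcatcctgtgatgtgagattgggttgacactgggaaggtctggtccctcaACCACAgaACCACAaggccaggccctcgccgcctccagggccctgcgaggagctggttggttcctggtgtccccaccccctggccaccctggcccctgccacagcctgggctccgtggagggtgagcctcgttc

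At least 1 copy was present in 14.0% of all windows and 2 or more in 1.27%. The downstream window, chr4:135152295-135152544, held none, and 1 window of Zbtb7b held 1. The downstream window held 38 CG dinucleotides, more than 98.1% of all windows, against 8 in the upstream window and a median of 6 over all windows. Counts per gene do not tell which start was used.

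The genes set by this lineage choice were far apart. Cd4 had 571, 624 and 539 CPM. Cd8a had 0, 0 and 1 counts, while Cd8b1 had 71, 62 and 89 counts (24.5 ± 6.51 CPM), so the CD8 coreceptor genes were not equally low. Per coding base Cd4 had 11.2 times the level of Cd8b1 (exact Clopper-Pearson interval 9.75 to 12.8), and 12.4, 14.4 and 7.86 times by library. Cd4 had 1.29 counts per coding base, more than Gata3 at 1.01, and Cd8b1 had 0.116. Compression of dense genes, which was not tested, would understate this ratio too. Of the 13 genes in the CD4 and CD8 lineage list 12 were detected (median 32.4 CPM), led by the integrin chain Itgae at 1013 ± 54.1 CPM, a gene that Runx3 is known to activate, and followed after Cd4 by the factor Tox at 491 ± 23.2. Of the granzyme genes, which encode proteases of cytotoxic cells, Gzmb had 466 ± 16.8 CPM, Gzma 46.6 ± 6.69 and Gzmk 6.93 ± 1.32.

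Ahr (ENSMUSG00000019256) lies on chromosome 12 from 35497974 to 35535038 on the minus strand, with 11 coding exons. Its 99, 71 and 97 counts gave 29.9, 23.1 and 34.9 CPM, lowest in library 2, with overlapping intervals (24.3 to 36.3, 18.0 to 29.1 and 28.3 to 42.5 CPM). Its dimer partner Arnt had 409, 389 and 273 counts, which is 4.06 times the level of Ahr per coding base (exact Clopper-Pearson interval 3.55 to 4.66), and 4.18, 5.55 and 2.85 times by library. The related Arnt2 had 33.8 ± 3.94 CPM. Of the coding 31-base stretches of Ahr 1.33% were shared, all with the overlapping gene Gm48236.

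Known targets of activated Ahr differed in level. Cyp1a1 and Cyp1b1, which encode enzymes that break down aromatic compounds, had no count in any library, and the feedback repressor gene Ahrr had 2, 0 and 1 counts. Tiparp, another induced target, had 190, 127 and 159 counts (51.9 ± 9.22 CPM), and Nqo1, which encodes a quinone reductase, had 70, 38 and 55 (17.7 ± 4.72 CPM). Of the 10 Ahr pathway genes 7 were detected (median 34.8 CPM). The chaperone gene Hsp90ab1 had 1180.0 ± 65.1 CPM, with 18.6% of its stretches shared, and the gut-homing receptor Gpr15 148, 128 and 191.

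Maf (ENSMUSG00000055435) lies on chromosome 8 from 115682942 to 115707794 on the minus strand, and its longest coding transcript has 3 exons, 2 of them coding. It had 149, 139 and 135 counts, or 44.9, 45.1 and 48.5 CPM, within a factor of 1.08, with intervals of 38.0 to 52.8, 38.0 to 53.3 and 40.7 to 57.4 CPM. Its relatives Mafa and Nrl had no count. No coding stretch of Maf was shared with another gene, while 440 of its exon bases overlap the antisense gene Gm15655, which is not among the counted genes. Whether counting used strand is not given in the sources used here, so reads from the 2 could not be told apart there.

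Of the 10 Maf program genes 8 were detected (median 9.48 CPM). Prdm1 led at 189.8 ± 44.3 CPM, then the inhibitory receptor Lag3 at 93.8 ± 18.2 and Il10, a suppressive cytokine that Maf promotes, with 63, 70 and 46 counts (19.4 ± 3.12 CPM). Il21 was near 0.

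**Figure D3:**
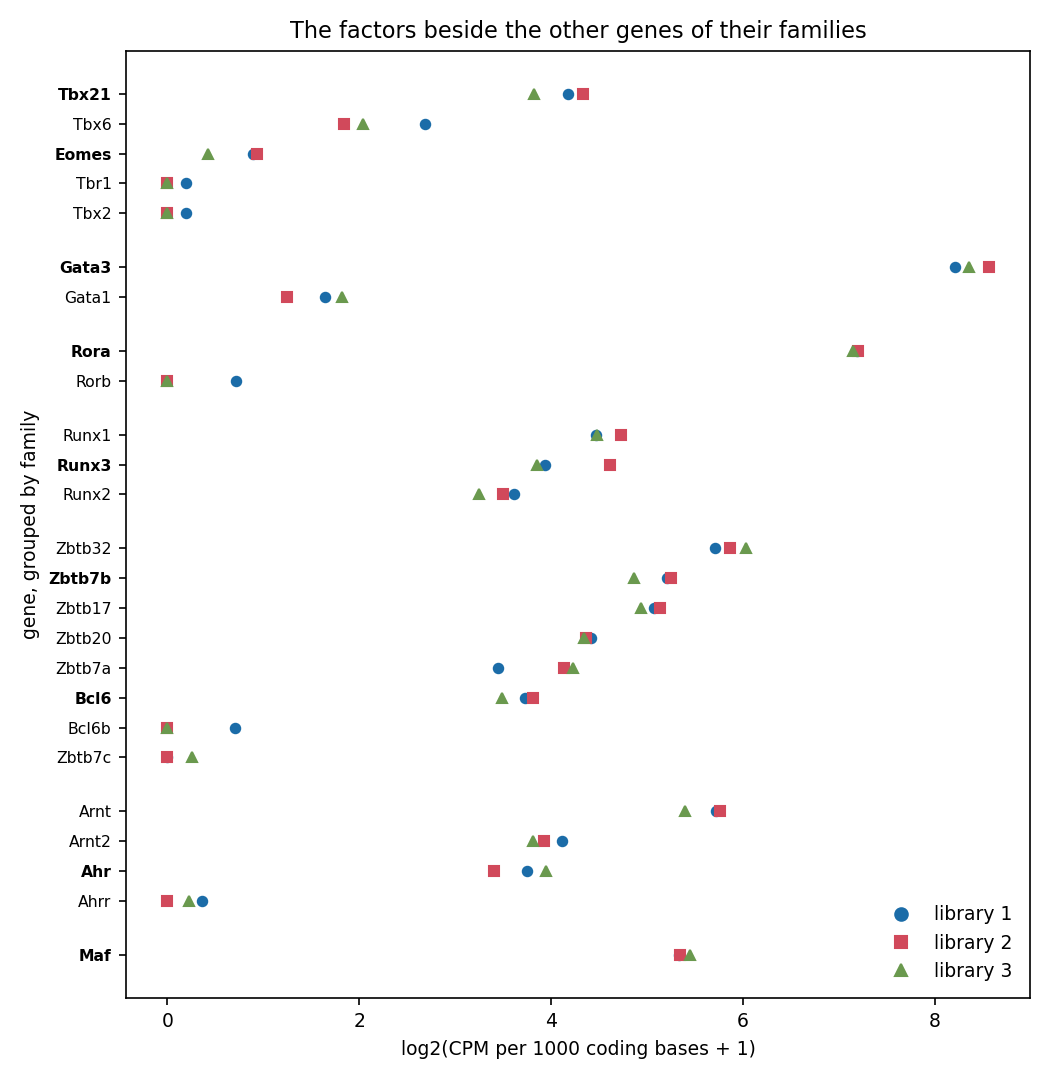
log2(CPM per 1000 coding bases + 1) in libraries 1, 2 and 3 for each factor (bold) and the family members with at least 1 count. Tbx21, Gata3 and Rora stand above the rest of their families, while Runx3 lies among its relatives, Ahr below Arnt, and Bcl6 and Zbtb7b below Zbtb32.

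**Figure D4:**
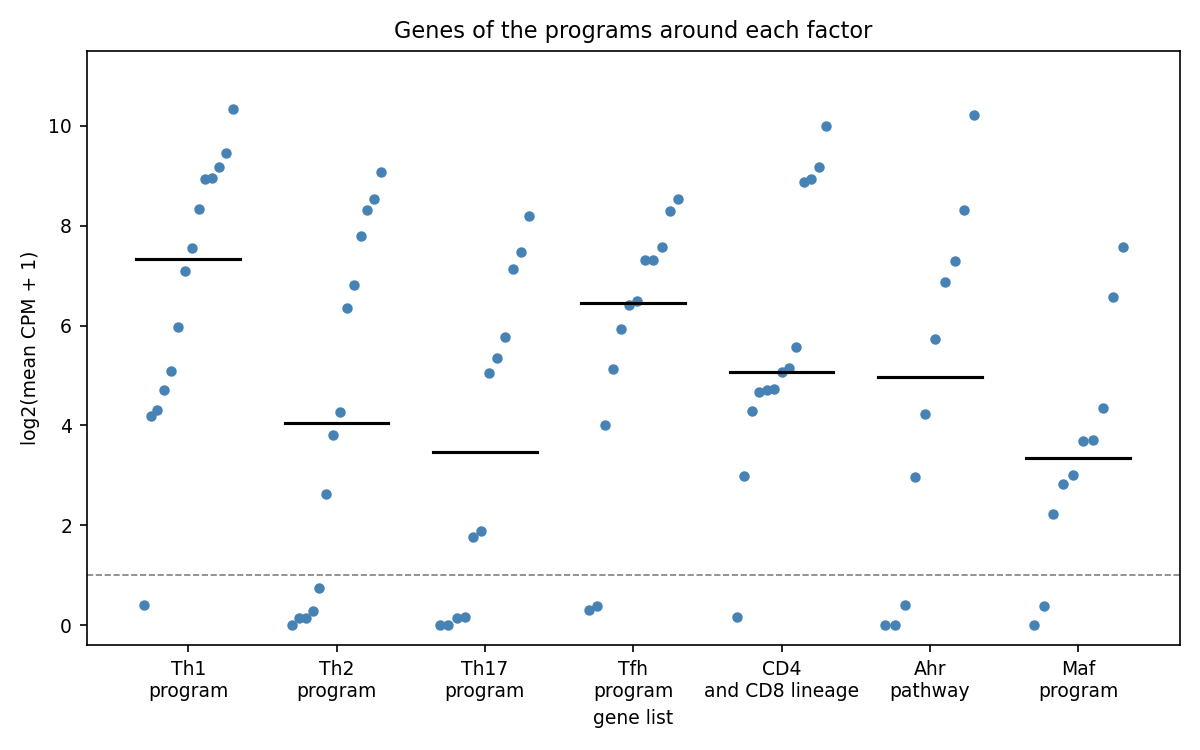
log2(mean CPM + 1) of each gene in the 7 program lists, with the median as a black bar and a dashed line at 1 CPM. The Th1 list has the highest median (161 CPM) and the Maf list the lowest (9.48 CPM), and the points near 0 include Il4, Il17a, Il21, Cd8a and Cyp1a1.

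Counts of the factors were then compared between libraries with a chi-square test that set each gene's counts beside the library totals, for the 10043 genes whose counts summed to at least 30. P-values were adjusted by Benjamini-Hochberg over these genes, with a threshold of 0.05. The test allows for Poisson noise only. Of the 8 factors tested, 2 differed, Gata3 and Runx3, a share near the 22.7% of all genes tested, so nothing about the factors as a set is read from this count. Both were highest in library 2. Of all genes tested, 7.03% passed with their highest share in library 2, which is 706 of the 2277 that passed. No factor passed with its highest share in library 1 or library 3, where 7.61% and 8.04% of all genes did. At such shares few or none of 8 genes would pass per library, so nothing is read from this split. Gata3 had 0.890, 1.13 and 0.981 times the counts its library totals gave (chi-square test, adjusted p = 4.08e-08), and Runx3 0.836, 1.37 and 0.784 times (chi-square test, adjusted p = 0.00715). Among genes with summed counts within 2-fold of Gata3, 51% passed, and among those within 2-fold of Runx3, 14.1%, so such a call was common at the depth of Gata3. Without library 2 neither passed (chi-square test, adjusted p = 0.0811 for Gata3 and 0.869 for Runx3).

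The other factors did not pass. Adjusted p-values of the chi-square test were 0.0987 for Ahr, 0.107 for Zbtb7b, 0.183 for Tbx21, 0.495 for Bcl6, 0.825 for Rora and 0.852 for Maf, and Eomes had too few counts to test. Among genes with summed counts within 2-fold of theirs, 15% passed around Ahr, 19.4% around Zbtb7b, 14.6% around Tbx21, 14.2% around Bcl6, 38.2% around Rora and 18% around Maf. Rora did not pass, and neither did most genes near its depth, of which 38.2% passed. Rora and Maf varied least, with a chi-square statistic per degree of freedom of 0.305 and 0.257, where Poisson noise alone gives 1 on average; Gata3 had 21.3 and Runx3 7.11. The quasi-likelihood test of edgeR set each library against the other 2, so the spread came from 2 libraries, the lone library being assumed to vary like them. A factor that did not pass is not shown to be equal between libraries. By it none of the 8 factors passed in any library against the others, where 0.114%, 0.052% and 0.281% of genes passed for libraries 1, 2 and 3. Runx3 in library 2 had a log2 difference of 0.77 (edgeR, unadjusted p = 0.0160, adjusted p = 0.879) and Gata3 0.29 (edgeR, unadjusted p = 0.0889, adjusted p = 1.000), and Runx3 in library 2 was the 1 case among the factors with an unadjusted p under 0.05.

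**Figure D5:**
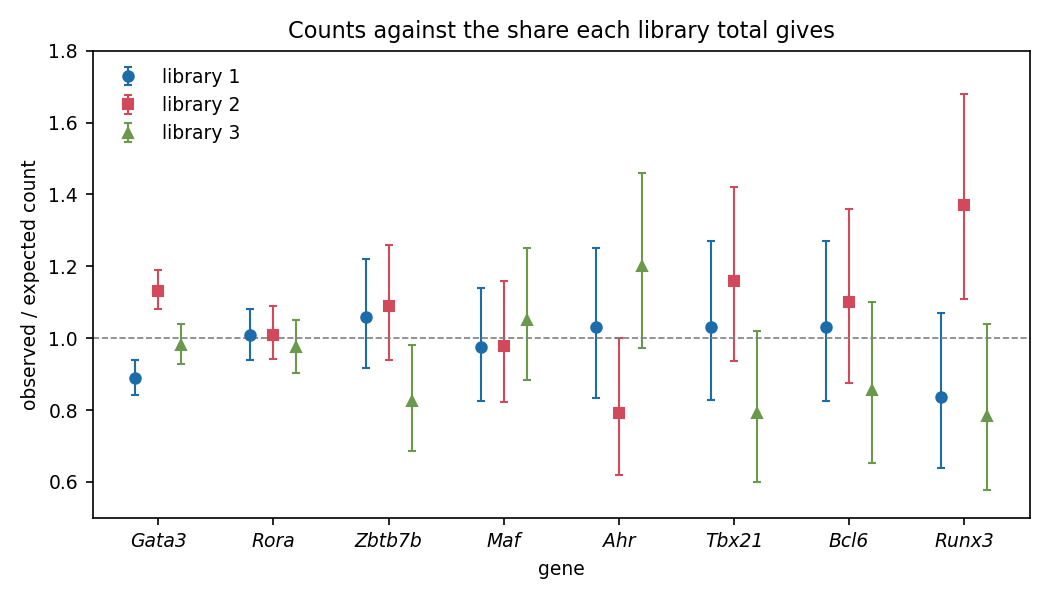
Observed over expected count of the 8 tested factors in libraries 1, 2 and 3, with exact 95% Poisson intervals; the dashed line at 1 marks the share that the library totals give. Library 2 lies above 1 for Gata3 (1.13) and Runx3 (1.37), and Rora and Maf lie between 0.975 and 1.05.

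Several of these factors are also expressed by cells other than T cells, and some markers of such cells moved with library 2. Monocyte and macrophage markers, 4 of 11 detected, summed to 60.3, 127 and 51.0 CPM, led by Itgam (39.5, 58.8 and 19.4 CPM, with 92.4% of its stretches shared) and Cd68. Of 5 tested by the chi-square test, 4 passed (Csf1r, Lyz2, Itgam and C1qb), where 22.7% of all genes tested did. All 4 were highest in library 2. High shares were not particular to these markers: by the same test 10 of 12 Treg identity genes and 7 of 10 pan CD4 T cell genes passed. The marker lists were not matched in depth, so nothing is read from the shares that passed. Detection needs every library, so a marker low in library 1 alone misses it, as Lyz2 did with 1, 49 and 11 counts. NK cell markers, 3 of 9 detected, summed to 5.73, 20.5 and 7.55 CPM, of which Tyrobp, shared with myeloid cells, had 4, 37 and 8 counts. The defining NK gene Ncr1 had 0, 3 and 2 counts and Klra4 none. Dendritic cell markers, 2 of 8 detected, summed to 24.4, 37.0 and 29.8 CPM, with Clec9a at 0. Of 3 tested by the chi-square test, 1 passed, Flt3, which had 1, 25 and 6 counts. CD8 T cell markers, 6 of 7 detected, summed to 584, 605 and 621 CPM, nearly all of it on Nkg7 and Ccl5, which effector T cells share. Markers of group 2 innate lymphoid cells, a cell type with high Gata3, had 4 of 8 detected and summed to 108, 123 and 129 CPM. Most of that sum lay on Il1rl1 (81.1 ± 4.28 CPM) and Il9r (24.8 ± 7.18). The undetected markers of that list were near 0: Il5, Il13 and Calca had 1 summed count each and Ptgdr2 had 2. The part of these cells in the levels of Gata3 and Runx3 was not tested. In bulk RNA, more cells of a type and more RNA per cell cannot be told apart. Thymocyte markers, 2 of 6 detected (Themis and Cd1d1), summed to 205, 161 and 183 CPM, with Rag1, Rag2 and Ptcra at 0 in all libraries.

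Over the 7 program lists, 26 of 63 distinct genes tested differed between libraries by the chi-square test, against 22.7% of all genes. The share that passed varied with depth (14.1% near the summed count of Runx3 and 51% near that of Gata3), and the program genes were not matched in depth, so nothing is read from this difference. By list these were 5 of 13 Th1 genes, 3 of 9 Th2, 5 of 6 Th17, 2 of 10 Tfh, 5 of 12 CD4 and CD8 lineage, 4 of 7 Ahr pathway and 3 of 8 Maf program genes, some genes standing in more than 1 list. The library with the highest share varied within each list. Stat6, like Gata3, was highest in library 2 (chi-square test, adjusted p = 2.11e-20), and Prdm1 was highest in library 1 (adjusted p = 1.14e-11, chi-square test). Gpr15 and Ccr6 were highest in library 3 (chi-square test, adjusted p = 1.48e-07 and 1.31e-05).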

How the data were processed

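Poly(A) RNA was sequenced from mouse regulatory T cells in 3 libraries, technical replicates of 1 biological replicate per the labels. The authors deposited whole-number counts per gene, unscaled, from alignments to mm10 counted on GENCODE M4, per notes that accompany the deposited files. For the aligner, counter, strand and duplicates, the sources used here give nothing. Totals were 2782259 to 3316275 counts, and precision is set by them. Symbols, positions and lengths came from GENCODE M21 (GRCm38, the assembly of mm10), which matched 22195 of 22457 identifiers, with a coding length for 21784. The names of the factors and the gene lists were chosen with earlier results of these data known. All 9 factors are named, with the 3 highest and 2 lowest genes of each program and family list, the 2 highest of each marker list and a fixed set of defining genes. Arnt2, Nrl, Mafa, Tbr1, Tiparp, Nqo1, Ptgdr2, Areg, Gzma, Gzmb, Calca, Csf1r, Lyz2, C1qb, Flt3 and the remaining zero-count markers were added, after their values were seen, to describe whole families or lists. Overlapping genes are named from the annotation. Some genes that this rule names are not reported here.

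CPM used the library total. Differences between libraries used a chi-square test (scipy 1.17.1) and edgeR 4.0.16 with TMM. Both were run on simulated counts that held Poisson noise only. Those runs do not show how the tests behave under the wider spread of these libraries. Alternatives were TMM, DESeq2 1.42.0 size factors, totals over genes under 0.5 counts per coding base, other minimums and thresholds, exon length and leaving out each library. Coding sequences were compared with all M21 transcripts in stretches of 31 bases, both strands.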

Additional observations from a re-analysis of the deposited data

How the results depend on the processing

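No paired analysis was possible because the libraries form 1 group. Leaving out each library, the median level of the factors was 28.8 to 32.4 CPM (29.3 with all; 32.4 without library 2) and the number differing between libraries 0 to 2, both calls, Gata3 and Runx3, being lost without library 2 and kept without library 1 or 3. By edgeR, with 1 library against 2, the number was 0, beside 2 by the chi-square test. Over all genes the chi-square test called 2277, edgeR 38 in any library, and the chi-square test 904 to 1466 with a library left out. The 2 calls were the same genes under TMM, DESeq2 size factors, the total over genes under 0.5 counts per coding base and minimums of 1 and 100 summed counts; no scaling moved the median of all genes by over 0.03 on the log2 scale. Of the 9 places in the order per coding base, 5 were kept with exon length and 4 with no length scaling. The ratio of Gata3 to Tbx21 fell from 20.0 to 10.4 per exon base; these changes follow from the lengths. Detection of Eomes rests on its 2 counts in library 3: at 0.5 CPM, or without library 3, all 9 factors were detected. Depth limits Eomes, Il4, Il5, Il13, Il21 and Ahrr, which had 14 or fewer summed counts.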
